A study of Mus musculus with 12 samples.

Results

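The TNF superfamily ligands of T cells are membrane proteins by which an activated T cell signals to its neighbours, and the 9 genes described here are Cd70, Tnfsf11, Tnfsf8, Tnfsf4, Tnfsf9, Tnfsf10, Tnfsf14, Fasl and Cd40lg. They were taken by gene symbol from a deposited table of 47643 genes, and all 9 were among the 13082 genes tested. RNA was sequenced in 12 libraries in 4 groups of 3, made from cells labelled as naive splenic CD4+ T cells of C57BL/6 mice. The first group was Tnfr2-/- (without TNF receptor 2, the product of Tnfrsf1b) with TNF+TGF-β, and the other 3 were wild type (WT) with TNF+TGF-β, with IL-6+TGF-β, or with no cytokine named in the labels (Th0). Per the labels' protocols, all 4 groups were activated for 3 days with plate-bound anti-CD3 and anti-CD28, each at 2 μg/ml, in wells of 500000 cells. The dose was 20 ng/ml for TNF or IL-6 and 2 ng/ml for TGF-β. The labels speak of triplicates and name no mice, ages or cultures, so a p-value here reflects the spread among 3 samples that may be technical repeats. Neither Tnfr2-/- cells activated without cytokine nor WT cells with TGF-β alone were analysed here. An effect of genotype in cells activated without cytokine, and the separate effects of TGF-β, TNF and IL-6, therefore cannot be told apart.

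Ligands of this family assemble as trimers on the cell surface and engage receptors of the matching TNF receptor superfamily, many of which recruit TRAF adaptors and activate NF-κB, while a few carry a death domain and can start apoptosis. Resting T cells carry little of most of these ligands, and antigen receptor signals induce them, so that T cells act on dendritic cells, B cells, osteoclast precursors and one another. Several of the genes, Cd70, Tnfsf4 and Tnfsf9 among them, are also known from activated B cells and dendritic cells. TNFR2 belongs to the same receptor superfamily and is the TNF receptor most characteristic of activated and regulatory T cells.

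Estimated depth was 17100000 to 23800000 fragments per library. The deleted gene followed the labels, with Tnfrsf1b at 3.92 ± 0.86 FPKM in Tnfr2-/- cells and 84.4 ± 20.6 FPKM in WT cells under TNF+TGF-β (SD, n = 3 each). FPKM count fragments per kilobase of a transcript, relative to all mapped fragments of the library, and can be compared between genes. Markers of other cells were present. In 11 of the 12 libraries both Cd8a and Cd8b1 were above Cd4, which goes against the CD4+ label. The summed level of 8 B cell markers was 1960 to 4307 FPKM in Tnfr2-/- cells, against 263 to 339.9 FPKM in WT cells with TNF+TGF-β, 422 to 938 with IL-6+TGF-β and 769 to 1222 in Th0. The sum of 10 myeloid markers was 326 to 1552 FPKM in Tnfr2-/- cells, against 88.9 to 155, 42.4 to 133 and 377 to 493 FPKM in the WT groups in the same order. Most of the Th0 sum was Ly6c2, which averaged 30.4 FPKM in Tnfr2-/- cells, against 5.78, 13.2 and 302 FPKM. Lyz2 averaged 805 FPKM in Tnfr2-/- cells (177.53 to 1310.05), against 91.3, 29.8 and 113 FPKM. Mpeg1 and Fcgr1 also averaged highest in Th0, and the remaining myeloid markers averaged highest in Tnfr2-/- cells. For 9 CD8 and NK cell markers the sums were 35.5 to 89.4 FPKM in Tnfr2-/- cells, against 352 to 406, 504 to 573 and 274 to 849 FPKM. These sums join unlike patterns. Cd8a averaged 21.8 FPKM in Tnfr2-/- cells, against 173, 165 and 60.5 FPKM, and Cd8b1 38.2 FPKM, against 161, 129 and 85.7 FPKM. Gzmb averaged 0.287 FPKM, against 1.5, 38.5 and 317 FPKM, and Klrd1 5.47 FPKM, against 34.2, 165 and 16.2 FPKM. The sum of 8 dendritic cell markers was 14390.3 to 28942 FPKM in Tnfr2-/- cells, against 2298 to 3264, 2108 to 4756 and 5523 to 9021 FPKM, nearly all of it H2-Ab1 and Cd74, which B cells also express. Without these, a split made after their values were seen, the other 6 dendritic cell markers summed to 3.68 to 5.56 FPKM in Tnfr2-/- cells. In the WT groups they summed to 7.3 to 12, 1.8 to 2.95 and 2.67 to 3.48 FPKM. This sum was highest, like that of the ligands, in WT cells with TNF+TGF-β, through Zbtb46 and Itgax alone. Of these, Zbtb46 averaged 1.33 FPKM in Tnfr2-/- cells, against 6.19, 0.237 and 2.21 FPKM, and Itgax 0.63 FPKM, against 2.57, 0.897 and 0.17 FPKM. The rest did not follow. Flt3 (1.57 FPKM, against 0.213, 0.183 and 0.35), Ccr9 (0.547, against 0.303, 0.35 and 0.207) and Siglech (0.09, against 0.06, 0.0167 and 0.0767) averaged highest in Tnfr2-/- cells. Xcr1 averaged highest with IL-6+TGF-β (0.597 FPKM, against 0.343 in WT with TNF+TGF-β). Ncr1, an NK cell gene, was listed at 0 in all 3 IL-6+TGF-β libraries, and no other marker was at 0 in every library of a group. The 6 T cell genes (Cd3d, Cd3e, Cd3g, Cd247, Lck and Cd4) summed to 1352 to 2159 FPKM in Tnfr2-/- cells, against 2136 to 2307, 1839 to 2029 and 1989.7 to 2241 FPKM. In bulk RNA, fewer cells of a type and less RNA per cell cannot be told apart, and the part of these cells in the ligand levels was not tested.

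The promoters of 5 ligand genes are shown, which are those matched among the RefSeq promoters. Of these, 4 (Tnfsf11, Tnfsf8, Tnfsf10 and Tnfsf14) were higher under TNF+TGF-β than in either other WT group and 1 (Fasl) was not. Each line holds the 180 bases from 250 to 71 bases before the RefSeq start of the gene, read 5′ to 3′ on the strand of the gene in RefSeq's GRCm38.p6. Capitals mark matches to GGAAA, the core bound by NFAT factors, or its reverse complement, and to TGANTCA, the site of AP-1.
Tnfsf11 at chr14:78308114-78308293, minus strand: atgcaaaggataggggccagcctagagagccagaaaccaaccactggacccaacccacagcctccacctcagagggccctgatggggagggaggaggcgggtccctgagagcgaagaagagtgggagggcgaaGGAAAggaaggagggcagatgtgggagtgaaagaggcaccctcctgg
Tnfsf8 at chr4:63861355-63861534, minus strand: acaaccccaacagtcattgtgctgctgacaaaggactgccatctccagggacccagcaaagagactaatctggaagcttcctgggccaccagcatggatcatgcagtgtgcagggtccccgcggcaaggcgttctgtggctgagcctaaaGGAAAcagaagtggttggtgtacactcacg
Tnfsf10 at chr3:27316827-27317006, plus strand: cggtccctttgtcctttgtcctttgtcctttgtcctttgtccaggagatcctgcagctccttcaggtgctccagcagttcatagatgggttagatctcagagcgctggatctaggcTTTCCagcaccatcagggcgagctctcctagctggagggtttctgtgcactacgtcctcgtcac
Tnfsf14 at chr17:57194252-57194431, minus strand: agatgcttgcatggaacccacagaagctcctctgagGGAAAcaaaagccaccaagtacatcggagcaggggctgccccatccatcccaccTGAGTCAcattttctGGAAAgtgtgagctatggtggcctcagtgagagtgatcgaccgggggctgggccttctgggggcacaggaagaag
Fasl at chr1:161788566-161788745, minus strand: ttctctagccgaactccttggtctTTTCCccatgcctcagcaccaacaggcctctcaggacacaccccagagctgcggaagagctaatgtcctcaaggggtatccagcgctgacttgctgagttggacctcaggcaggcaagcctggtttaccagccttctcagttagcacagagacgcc
All 5 windows held GGAAA on one strand or the other, which 45.5% of 32851 windows of this length and position did. Tnfsf14 held it at both -214 to -210 and -145 to -141, counted from the start site, and in Fasl and Tnfsf10 it lay on the opposite strand. TGANTCA was found in Tnfsf14, as TGAGTCA at -160 to -154, with no overlap with another motif; 4.93% of all windows held it. The NF-κB consensus and CAGAC, a sequence bound by SMAD factors, were in none of the 5 windows, and 2.81% and 33.2% of all windows held them. All searches covered both strands. Cd70, Tnfsf4, Tnfsf9 and Cd40lg were not matched in the promoter table.

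The ligand genes together were highest in WT cells with TNF+TGF-β and were lowest in Tnfr2-/- cells and with IL-6+TGF-β. Their summed level was 52.6, 67.3 and 90.4 FPKM in the Tnfr2-/- libraries, 329, 373 and 377 FPKM in WT with TNF+TGF-β, 48.3, 50.9 and 58.6 FPKM in WT with IL-6+TGF-β and 98.9, 136 and 147 FPKM in Th0. The TNF+TGF-β libraries of WT cells overlapped with no other group, and the Tnfr2-/- libraries overlapped with IL-6+TGF-β. Tnfsf11 made up the largest share of the sum in Tnfr2-/- cells (33.3% to 38.5%) and in WT cells with TNF+TGF-β (31.5% to 37.5%). Tnfsf4 did so with IL-6+TGF-β (19.0% to 29.0%) and in Th0 (26.0% to 37.2%). Cd70 contributed 1.96% to 2.7% in Tnfr2-/- cells, 12% to 13% in WT with TNF+TGF-β, 1.89% to 2.65% with IL-6+TGF-β and 2.46% to 3.52% in Th0. Fasl was the ligand with a larger share in Tnfr2-/- cells, 11.6% to 18.1%, than in any WT group, where it ran to at most 8.04%.

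**Figure D1:**
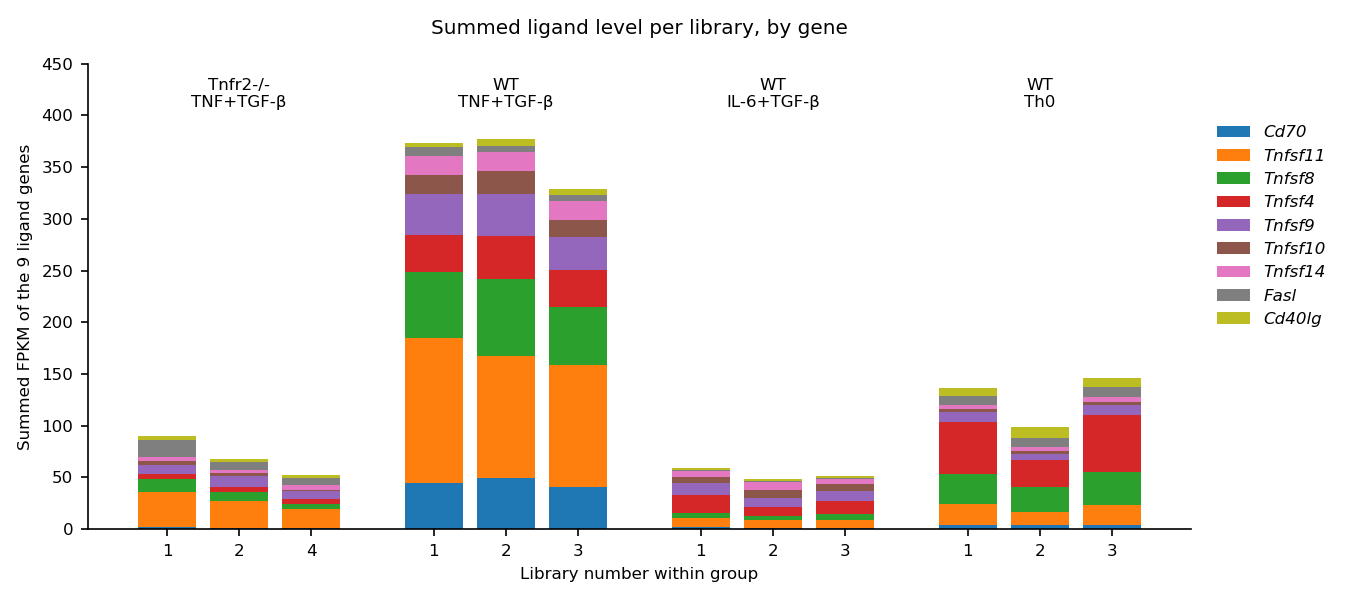
Summed FPKM of the 9 ligand genes in each of the 12 libraries, stacked by gene, with library numbers within each group on the horizontal axis. The 3 WT libraries with TNF+TGF-β reach 329 to 377 FPKM, above all other libraries, and the Tnfr2-/- libraries reach 52.6 to 90.4 FPKM.

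With TNF+TGF-β, WT cells carried more mRNA of Cd70, Tnfsf11, Tnfsf10, Tnfsf9, Tnfsf14 and Tnfsf8 than Th0 cells, and slightly less of Cd40lg, while Tnfsf4 and Fasl were not called. Of the 9 ligands 6 were called higher, where 18.7% of all tested genes were, and 1 lower, where 13% were. A gene is called at a Benjamini-Hochberg adjusted p under 0.05 in limma, fitted to log2(FPKM + 1) of all 13082 tested genes. The median log2 difference of the ligands was 1.82, and that of all tested genes 0.07. The libraries of both groups did not overlap for 7 of the ligands, as for 55.1% of tested genes. Beside this, all 8 B cell and 2 of 9 tested myeloid markers were called lower, and of 7 tested CD8 and NK markers 3 were called higher and 2 lower. Of 4 tested dendritic cell markers, Itgax (1.57) and Zbtb46 (1.16) were called higher, as the 6 ligands were, and H2-Ab1 and Cd74 lower (-1.84 and -1.38). Itgax averaged at most 0.897 FPKM outside WT with TNF+TGF-β, so it passed the filter (3 or more libraries at 1 FPKM or above) through that group. Its calls here and below are not independent of the filter. With libraries scaled to 5 T cell genes (Cd3d, Cd3e, Cd3g, Cd247 and Lck), the 6 rises kept their calls, with Cd70 at 3.30 and Tnfsf8 at 1.19. Of 13059 genes tested on that scale, 2218 were called higher and 1216 lower.

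Cd70 encodes the ligand of CD27, a costimulatory receptor of T cells, and showed the largest difference of the 9. Its level was 44.99, 48.93 and 40.39 FPKM in the TNF+TGF-β libraries, against 3.97, 3.48 and 3.60 FPKM in Th0. All TNF+TGF-β libraries lay far above all Th0 libraries. The means were 44.8 ± 4.27 and 3.68 ± 0.255 FPKM (SD, n = 3 each), a 12.2-fold ratio, with a log2 difference of 3.29 ± 0.17 (SE, adjusted p = 1.01e-07).

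Tnfsf11 encodes RANKL, which acts on RANK on dendritic cells and osteoclast precursors, and was the most abundant of the 9 in the TNF+TGF-β libraries. It stood at 140.00, 118.75 and 118.47 FPKM with TNF+TGF-β, against 19.96, 13.28 and 20.00 FPKM in Th0, without overlap. The log2 difference was 2.78 ± 0.22 (SE, adjusted p = 3.06e-06), and the ratio of the means 7.09.

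Tnfsf9, Tnfsf14 and Tnfsf8 encode further ligands of costimulatory receptors. Tnfsf9 encodes 4-1BBL and had 39.66, 40.56 and 31.65 FPKM with TNF+TGF-β, against 9.72, 6.65 and 10.39 FPKM in Th0. Tnfsf14 encodes LIGHT, which binds HVEM and the lymphotoxin β receptor, and had 18.10, 18.29 and 18.59 FPKM with TNF+TGF-β, against 4.41, 3.99 and 5.06 FPKM in Th0. Their TNF+TGF-β libraries were all above their Th0 libraries, and those of Tnfsf14 were closer to each other, with an SD of 0.247 FPKM, than those of any other ligand in this group. The log2 differences were 1.96 ± 0.19 for Tnfsf9 and 1.82 ± 0.17 for Tnfsf14 (SE, adjusted p = 1.08e-05 and 1.1e-05). Tnfsf8 encodes CD30L, the ligand of CD30, and had 63.64, 74.29 and 56.20 FPKM with TNF+TGF-β, against 29.51, 23.93 and 31.84 FPKM in Th0. Its log2 difference was 1.16 ± 0.24 (SE, adjusted p = 0.00305), again without overlap.

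The death ligands went different ways. Tnfsf10 encodes TRAIL and had 18.42, 22.24 and 16.85 FPKM with TNF+TGF-β, against 3.17, 2.65 and 2.65 FPKM in Th0, without overlap. Its log2 difference was 2.39 ± 0.26 (SE, adjusted p = 2.91e-05). Fasl encodes the ligand of the death receptor Fas and had 8.26, 5.13 and 4.92 FPKM with TNF+TGF-β, against 8.14, 7.95 and 9.15 FPKM in Th0. Those ranges overlapped, and the log2 difference of -0.43 had a 95% interval of -1.03 to 0.16 (adjusted p = 0.244).

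Tnfsf4 and Cd40lg, like Fasl, were not called higher. Tnfsf4 encodes OX40L, the ligand of the costimulatory receptor OX40, and had 36.00, 41.86 and 35.51 FPKM with TNF+TGF-β, against 49.70, 25.67 and 54.52 FPKM in Th0. The Th0 libraries lay on both sides of the TNF+TGF-β libraries, and the log2 difference was -0.12 with a 95% interval of -0.70 to 0.45 (adjusted p = 0.752). Cd40lg encodes CD40 ligand, the signal of T cell help to B cells, and had 4.35, 7.08 and 6.38 FPKM with TNF+TGF-β, against 7.72, 11.32 and 9.32 FPKM in Th0. The log2 difference of -0.60 ± 0.21 (SE) passed at an adjusted p of 0.0496, and in 1 of 14 alternatives, with an adjusted p of up to 0.196 over the others.

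**Figure D2:**
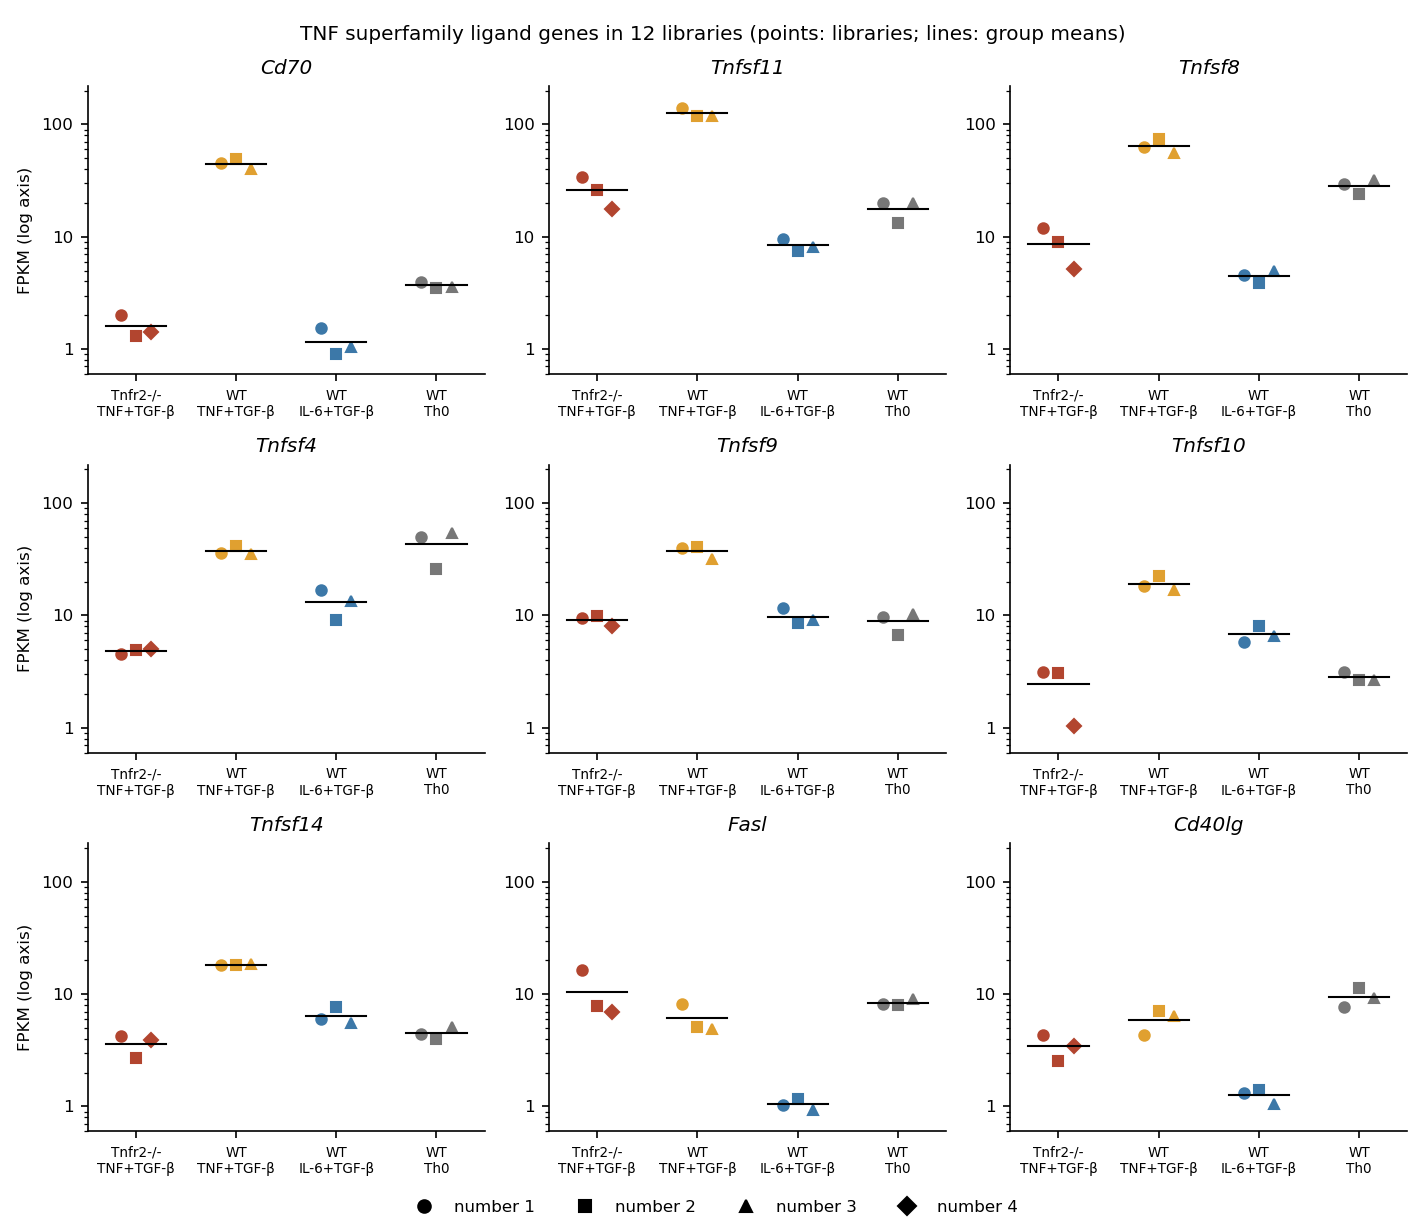
FPKM of each ligand gene on a log axis, 1 panel per gene. Points are the 12 libraries, with a marker for each library number and the 4 groups side by side, and lines are group means. Cd70 stands at 40.39 to 48.93 FPKM in WT cells with TNF+TGF-β and below 4 FPKM in all other libraries.

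With IL-6+TGF-β, WT cells carried less mRNA of 6 ligands than Th0 cells, Tnfsf8, Fasl, Cd40lg, Tnfsf4, Cd70 and Tnfsf11, and more of Tnfsf10. Thus 6 of 9 were called lower, where 9.15% of all tested genes were, and 1 higher, where 14.1% were. The median log2 difference of the ligands was -1.12, against 0.04 over all tested genes. The 2 groups did not overlap for 8 ligands, as for 39.2% of tested genes. Of the markers, 4 of 9 tested myeloid, 2 of 8 B cell and 2 of 4 tested dendritic cell genes (Zbtb46 at -1.37 and H2-Ab1 at -1.02) were called lower. Of 7 tested CD8 and NK markers 3 were called higher, Klrd1 (3.33) and Cd8a (1.44) among them, and 2 lower, Gzmb (-2.70) and Eomes (-1.34). Scaled to the T cell genes, where the median of all genes was 0.187, the same 7 ligands were called, from -2.26 for Tnfsf8 to 1.16 for Tnfsf10. Of 13059 genes tested on that scale, 2269 were called higher and 696 lower.

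Tnfsf8 fell to 4.60, 3.87 and 4.99 FPKM with IL-6+TGF-β, against the Th0 values given above, with a log2 difference of -2.42 ± 0.24 (SE, adjusted p = 1.53e-05). Fasl was near 1 FPKM throughout, at 1.04, 1.16 and 0.93 FPKM, and its log2 difference from Th0 was -2.20 ± 0.27 (SE, adjusted p = 9.28e-05). Cd40lg had 1.32, 1.40 and 1.05 FPKM, a log2 difference of -2.20 ± 0.21 (SE, adjusted p = 1.41e-05). These 3 genes had the largest falls of the 9, with means 6.34, 8.06 and 7.52 times higher in Th0. The lowest of these values rest on few fragments. Taken on the full transcript length, they are at most about 25 for Fasl at 0.93 FPKM and 30 for Cd40lg at 1.05 FPKM.

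Tnfsf4 had 17.00, 9.18 and 13.49 FPKM with IL-6+TGF-β, all below the lowest Th0 library (log2 difference -1.61 ± 0.26 (SE), adjusted p = 0.000826). Cd70 had 1.55, 0.91 and 1.04 FPKM (-1.12 ± 0.17, adjusted p = 0.000436), the lowest value being at most about 18 fragments. Tnfsf11 had 9.56, 7.45 and 8.09 FPKM (-0.98 ± 0.22, adjusted p = 0.00752). In all 3 genes the IL-6+TGF-β libraries were below every Th0 library.

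Tnfsf10 was the ligand called higher with IL-6+TGF-β, at 5.80, 8.12 and 6.56 FPKM (log2 difference 1.03 ± 0.26 (SE), adjusted p = 0.0124). Without the second IL-6+TGF-β library its adjusted p was 0.0513. Tnfsf14 had 6.03, 7.69 and 5.59 FPKM, all above Th0, and missed the threshold (0.43, 95% interval 0.06 to 0.81, adjusted p = 0.0932). Tnfsf9 had 11.69, 8.49 and 9.12 FPKM, overlapping with Th0 (0.13, 95% interval -0.28 to 0.53, adjusted p = 0.674).

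Set directly against each other in WT cells, the 2 cytokine pairs (which share TGF-β) gave all 9 ligands higher with TNF+TGF-β. Among all tested genes 7.31% were called higher and 5.5% lower. The median log2 difference of the ligands was 1.77, against 0.0 over all tested genes, and no ligand overlapped between the groups, as for 32.1% of tested genes. Cd70, Tnfsf11 and Tnfsf8 differed most, with mean levels 38.4, 15 and 14.4 times those of IL-6+TGF-β and log2 differences of 4.41 ± 0.17, 3.76 ± 0.22 and 3.58 ± 0.24 (SE, adjusted p = 2.34e-08, 5.81e-07 and 1.23e-06). The other 6 ran from 1.37 for Tnfsf10 (adjusted p = 0.00329) to 1.83 for Tnfsf9 (adjusted p = 3.37e-05). Fasl and Cd40lg, at 1.77 and 1.60, were among these 6 although neither was called higher against Th0. Beside this, 5 of 8 B cell and 1 of 9 tested myeloid markers were called lower, and of 7 tested CD8 and NK markers 4 were called lower and 1, Eomes (1.06), higher. Of 4 tested dendritic cell markers 1, Zbtb46, was called higher, as the ligands were (2.53, adjusted p = 1.14e-05), and Cd4 was called higher (2.18, adjusted p = 0.0199). All 9 ligands were also called higher on the T cell gene scale, from 1.24 to 4.3 log2 units, for Tnfsf10 and Cd70, with the median of all genes at -0.115. Of 13059 genes tested on that scale, 688 were called higher and 877 lower. This comparison shares libraries with each comparison against Th0, so the 3 are not independent.

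**Figure D3:**
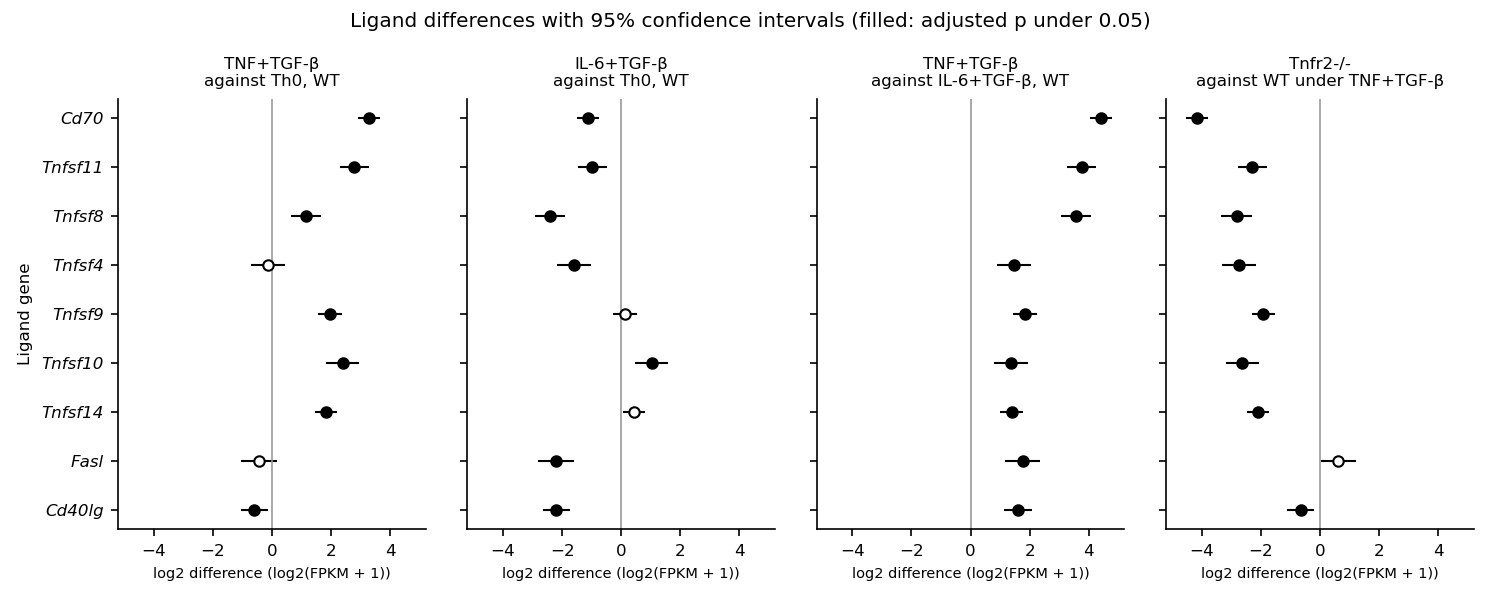
Log2 differences of the 9 ligand genes on the log2(FPKM + 1) scale in the 4 comparisons, with 95% confidence intervals from limma as bars and filled points for an adjusted p under 0.05. All 9 points lie above 0 where the cytokine pairs are compared, and 8 lie below 0, filled, for Tnfr2-/- against WT.

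Without TNFR2, cells given TNF+TGF-β carried less mRNA of 8 of the 9 ligands than WT cells given the same cytokines. Cd70 had the largest difference, and Fasl was the ligand not called lower. In limma 0 were called higher (1, Fasl, at an unadjusted p under 0.05). Among all tested genes 17.5% were called lower and 19.9% higher. The median log2 difference of the ligands was -2.28, against 0.0 over all tested genes. The libraries of both genotypes did not overlap for 8 ligands, as for 50.8% of tested genes.

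Cd70 had 2.03, 1.32 and 1.42 FPKM in Tnfr2-/- cells, against 44.99, 48.93 and 40.39 FPKM in WT cells. The highest Tnfr2-/- library was far below the lowest WT library, and the WT mean was 28.2 times the Tnfr2-/- mean (log2 difference -4.15 ± 0.17 (SE), adjusted p = 3.88e-08). Tnfsf8, the CD30 ligand gene, had 11.94, 9.01 and 5.18 FPKM in Tnfr2-/- cells, against 63.64, 74.29 and 56.20 FPKM in WT cells (-2.81 ± 0.24, adjusted p = 8.53e-06).

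Tnfsf4 had 4.56, 4.93 and 5.01 FPKM in Tnfr2-/- cells, against 36.00, 41.86 and 35.51 FPKM in WT cells (log2 difference -2.73 ± 0.26 (SE), adjusted p = 1.89e-05). The OX40L gene thus differed 7.82-fold by genotype under TNF+TGF-β, while in WT cells TNF+TGF-β and Th0 were not distinguished. Tnfsf10 had 3.17, 3.10 and 1.03 FPKM in Tnfr2-/- cells, against 18.42, 22.24 and 16.85 FPKM in WT cells (-2.62 ± 0.26, adjusted p = 2.04e-05). The library numbered 4 was the low one.

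Tnfsf11 had 34.30, 25.90 and 17.53 FPKM in Tnfr2-/- cells, against 140.00, 118.75 and 118.47 FPKM in WT cells (log2 difference -2.28 ± 0.22 (SE), adjusted p = 2.1e-05). The RANKL gene was still the most abundant of the 9 in each Tnfr2-/- library. Tnfsf14 had 4.24, 2.69 and 3.91 FPKM in Tnfr2-/- cells, against 18.10, 18.29 and 18.59 FPKM in WT cells (-2.08 ± 0.17, adjusted p = 8.07e-06). Tnfsf9 had 9.52, 9.97 and 8.09 FPKM in Tnfr2-/- cells, against 39.66, 40.56 and 31.65 FPKM in WT cells (-1.91 ± 0.19, adjusted p = 1.92e-05). No library of one genotype reached the range of the other for these 3 genes.

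Cd40lg showed a small difference, with 4.3, 2.55 and 3.44 FPKM in Tnfr2-/- cells, against 4.35, 7.08 and 6.38 FPKM in WT cells (log2 difference -0.64 ± 0.21 (SE), adjusted p = 0.0325). The highest Tnfr2-/- library was just below the lowest WT library. Leaving out the WT library numbered 2 or 3 gave an adjusted p of 0.114 or 0.0988, and leaving out the Tnfr2-/- library numbered 2 or 4 gave 0.125 or 0.0655. Fasl had 16.37, 7.81 and 6.96 FPKM in Tnfr2-/- cells, against 8.26, 5.13 and 4.92 FPKM in WT cells, and the groups overlapped. Its log2 difference of 0.62 had a 95% interval of 0.03 to 1.21 (adjusted p = 0.0933). Without the Tnfr2-/- library numbered 1, the high one, it was 0.27 (adjusted p = 0.322), and without the one numbered 4 it was 0.83 (adjusted p = 0.0467).

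Markers of other cells moved with genotype beside these falls. All 8 B cell markers, and 7 of 9 tested myeloid markers, were called higher in Tnfr2-/- cells, and 3 of 7 tested CD8 and NK markers were called lower. Of 4 tested dendritic cell markers, Zbtb46 (-1.65, adjusted p = 0.000166) and Itgax (-1.13, adjusted p = 0.016) were called lower, as 8 ligands were, and H2-Ab1 and Cd74 higher (3.50 and 2.99). Of the 6 T cell genes 1, Cd4, was called lower. When each library was scaled to the 5 T cell genes, the median of all genes moved to 0.19, and Cd70 stood at -3.99, Tnfsf8 at -2.62, Tnfsf4 at -2.54, Tnfsf10 at -2.47, Tnfsf11 at -2.07, Tnfsf14 at -1.90 and Tnfsf9 at -1.71. These 7 remained called, with adjusted p at most 4.99e-05, where 1467 of 13059 tested genes were called lower and 3187 higher. On that scale Cd40lg was not called (-0.47, adjusted p = 0.109), and Fasl was called higher (0.80, adjusted p = 0.021). Scaling to these 5 genes does not adjust for the share of CD8 cells among T cells. The part of the mix of cells in these results beyond this scaling was not tested.

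Against WT Th0 cells, Tnfr2-/- cells with TNF+TGF-β had 4 ligands called lower by limma, where 19.1% of tested genes were, and 0 called higher, where 29.0% were (1 at an unadjusted p under 0.05). These were Tnfsf4 at -2.86, Tnfsf8 at -1.65, Cd40lg at -1.24 and Cd70 at -0.86. The other 5 ligands were not called. Against WT with IL-6+TGF-β, the Tnfr2-/- cells had 4 ligands called higher, where 21.5% of tested genes were, and 3 called lower, where 17.0% were. Fasl at 2.39, Tnfsf11 at 1.48, Cd40lg at 0.96 and Tnfsf8 at 0.76 were higher, and Tnfsf4 at -1.25, Tnfsf10 at -1.25 and Tnfsf14 at -0.69 lower. Tnfsf8 rested on single libraries here, since its adjusted p was 0.0739 without the second IL-6+TGF-β library, and 0.0791 or 0.0717 without the Tnfr2-/- library numbered 1 or 2. In the first of these comparisons 7 of 8 B cell, 6 of 9 myeloid and 2 of 4 dendritic cell markers were called higher, and 1 myeloid and 6 of 7 CD8 and NK markers lower. In the second 8 B cell, 8 myeloid, 3 dendritic cell and 1 CD8 and NK markers were called higher, and 6 CD8 and NK markers lower. Genotype and cytokines both differ in these 2 comparisons, so they only place the group levels in order.

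By mean level the 4 groups fell into several orders. For Cd70, Tnfsf11, Tnfsf8, Tnfsf9, Tnfsf10 and Tnfsf14, WT cells with TNF+TGF-β came first and differed from the next group. Below them, Cd70 was lower in Tnfr2-/- cells (1.59 ± 0.384 FPKM) than in Th0 (3.68 ± 0.255), and the Tnfr2-/- level was not distinguished from that with IL-6+TGF-β (1.17 ± 0.338, adjusted p = 0.25). Tnfsf9 was not distinguished among Tnfr2-/- cells (9.19 ± 0.982 FPKM), IL-6+TGF-β (9.77 ± 1.7) and Th0 (8.92 ± 1.99). Tnfsf11 was not distinguished between Tnfr2-/- cells (25.9 ± 8.39 FPKM) and Th0 (17.7 ± 3.87, adjusted p = 0.0886), but without the Tnfr2-/- library numbered 4 it was called higher in Tnfr2-/- cells (log2 difference 0.74, adjusted p = 0.0123). Tnfsf8 had all 4 levels apart, at 8.71 ± 3.39 FPKM in Tnfr2-/- cells, 64.7 ± 9.09 in WT with TNF+TGF-β, 4.49 ± 0.569 with IL-6+TGF-β and 28.4 ± 4.06 in Th0. Tnfsf4 was lowest in Tnfr2-/- cells (4.83 ± 0.24 FPKM) and below IL-6+TGF-β (13.2 ± 3.92). Cd40lg was highest in Th0, and Fasl was not distinguished among Tnfr2-/- cells, WT with TNF+TGF-β and Th0. All errors in this paragraph are SD with n = 3.

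Cd70, Tnfsf9 and Tnfsf14 are neighbours on chromosome 17. In GRCm38 with GENCODE M21, Tnfsf9 (ENSMUSG00000035678.8) lies at 57105325 to 57107757 on the plus strand. On the minus strand, Cd70 (ENSMUSG00000019489.7) lies at 57145997 to 57149777 and Tnfsf14 (ENSMUSG00000005824.7) at 57189492 to 57194177. The gaps between them are 38.2 and 39.7 kb. Within 500 kb of the Cd70 start, 20 other genes were tested. Of these, TNF+TGF-β against Th0 gave 4 called higher, where 18.7% of all tested genes were, and 1 lower, where 13% were. In Tnfr2-/- against WT cells 4 were called higher and 4 lower, where 19.9% and 17.5% of all tested genes were. These counts were not tested against the shares over all genes. C3, a complement gene whose start lies 78 kb from that of Cd70, had mean levels of 3.84 FPKM in Tnfr2-/- cells, 13.9 in WT with TNF+TGF-β, 0.627 with IL-6+TGF-β and 2.01 in Th0. It was called higher under TNF+TGF-β (2.32 against Th0, adjusted p = 0.000195) and lower in Tnfr2-/- cells (-1.74, adjusted p = 0.00133). Both comparisons contain the WT libraries with TNF+TGF-β, and C3 is named after its values were seen. Tnfsf9 shares 618 bases with Gm11110, a lincRNA gene on the opposite strand, and the library kit does not keep the strand. Gm11110 itself was not called in either comparison (log2 difference 0.43 and 0.10, adjusted p = 0.196 and 0.779).

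**Figure D4:**
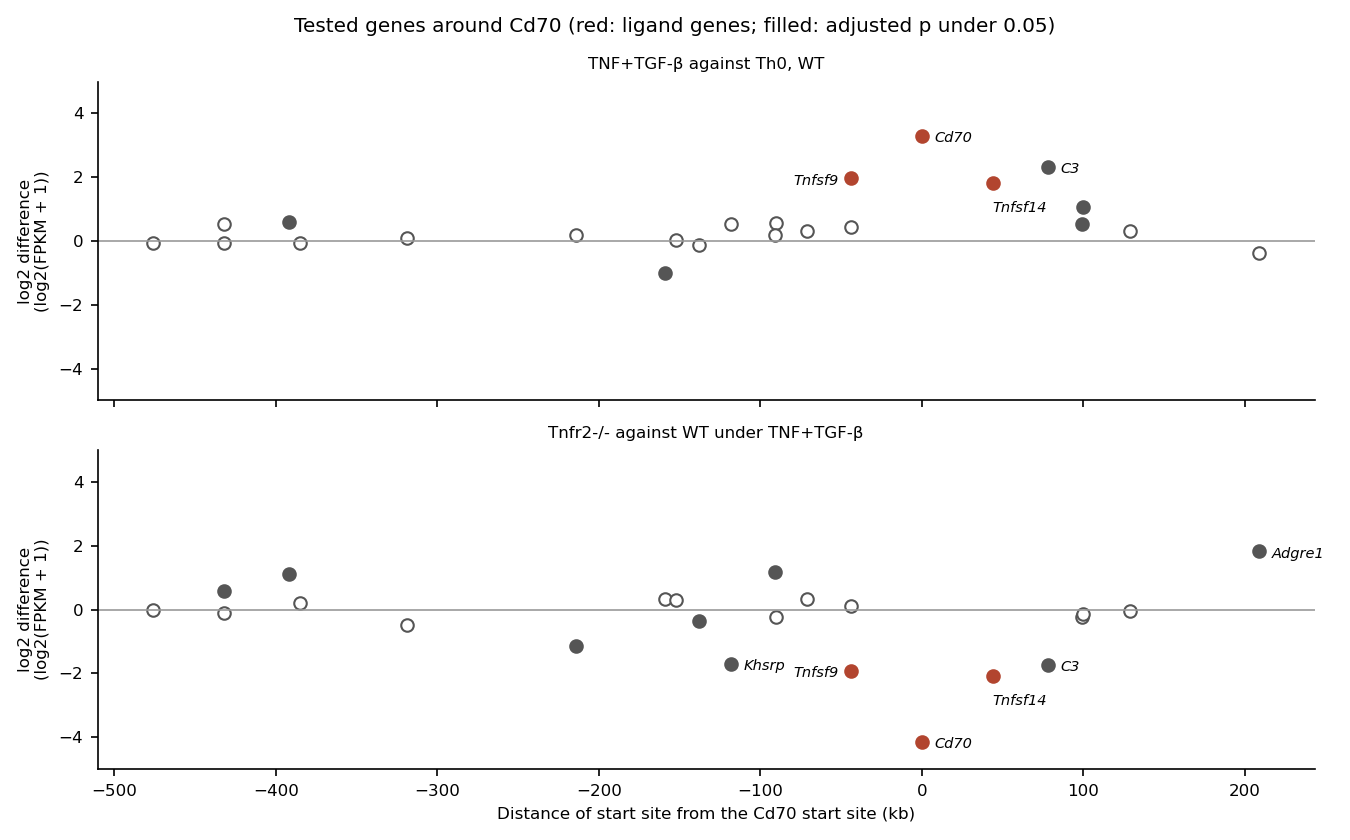
Log2 differences of tested genes within 500 kb of the Cd70 start site, by distance of start sites in kb, with ligand genes in red and filled points for an adjusted p under 0.05. Cd70, Tnfsf9 and Tnfsf14 stand at 3.29, 1.96 and 1.82 for TNF+TGF-β against Th0 in the upper panel, and at -4.15, -1.91 and -2.08 for Tnfr2-/- against WT in the lower one.

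The other ligands lie apart from that cluster. Tnfsf4 (ENSMUSG00000026700.4) is on chromosome 1 at 161395409 to 161418410, 362.3 kb from Fasl (ENSMUSG00000000817.10) at 161780689 to 161788495. Tnfsf10 (ENSMUSG00000039304.11) is on chromosome 3 at 27317028 to 27342427, and Tnfsf8 (ENSMUSG00000028362.2) on chromosome 4 at 63831308 to 63861347. Tnfsf11 (ENSMUSG00000022015.8) is on chromosome 14 at 78277445 to 78308043, and Cd40lg (ENSMUSG00000031132.1) on the X chromosome at 57212143 to 57224042. No gene other than the lincRNA overlapped a ligand gene.

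Of the 11 genes for receptors of these ligands, 9 were tested, and Tnfrsf11b and Ltbr were too low. Tnfrsf11a passed the filter through WT cells with TNF+TGF-β, since elsewhere it reached at most 1.0 FPKM, in the Tnfr2-/- library numbered 4. Tnfrsf8 passed through IL-6+TGF-β alone, with at most 0.99 FPKM in any other library. The calls of these genes, which the counts below include, are therefore not independent of the filter. With TNF+TGF-β against Th0, limma called 2 of the 9 higher and 0 lower (3 higher and 1 lower at an unadjusted p under 0.05), namely Tnfrsf11a, which encodes the RANKL receptor RANK (1.93, adjusted p = 6.9e-06), and Fas (1.63, adjusted p = 7.37e-06). With IL-6+TGF-β against Th0, Tnfrsf8, which encodes CD30, was called higher (2.28, adjusted p = 0.00032), and Cd40 (-1.62) and Tnfrsf4, which encodes OX40 (-1.24), were called lower. Between TNF+TGF-β and IL-6+TGF-β, 5 were called higher and 1 lower, with Tnfrsf11a (1.76), Fas (1.47) and Tnfrsf8 (-2.15) the most different. The CD30 ligand gene and the CD30 gene thus differed in opposite directions between the cytokine pairs. Tnfsf8 averaged 64.7 FPKM with TNF+TGF-β and 4.49 with IL-6+TGF-β, and Tnfrsf8 averaged 0.717 ± 0.0416 and 7.16 ± 3.73 FPKM (SD, n = 3 each).

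In Tnfr2-/- against WT cells under TNF+TGF-β, limma called 5 of 9 receptor genes lower and 0 higher, and the counts were the same at an unadjusted p under 0.05. Of all tested genes 17.5% were called lower and 19.9% higher. Fas averaged 19.2 ± 1.84 FPKM in Tnfr2-/- cells and 89.4 ± 8.77 FPKM in WT cells (log2 difference -2.16, adjusted p = 2.25e-06). Tnfrsf9, which encodes 4-1BB, averaged 168 ± 70.6 and 404 ± 20.7 FPKM (-1.35, adjusted p = 0.00152). Tnfrsf11a, which passed the filter through this WT group, averaged 0.927 ± 0.0945 and 3.53 ± 0.354 FPKM (-1.23, adjusted p = 0.000219). The receptors' median log2 difference was -1.07, and Cd27 and Tnfrsf14, the receptor genes of Cd70 and Tnfsf14, were not called (-0.42 and 0.01). All SD here are over n = 3.

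Other TNF superfamily ligand genes were mostly too low to test, since 3 of 9 passed the filter. Lta, which encodes lymphotoxin α, averaged 55.0 ± 15.6 FPKM in Tnfr2-/- cells, 128 ± 50.6 in WT with TNF+TGF-β, 112 ± 15.3 with IL-6+TGF-β and 42.5 ± 12.7 in Th0 (SD, n = 3 each). It was called higher with both cytokine pairs than in Th0 (1.52 and 1.41, adjusted p = 0.00305 and 0.00596) and lower in Tnfr2-/- than in WT cells (-1.16, adjusted p = 0.0121). Ltb, which encodes lymphotoxin β, was called higher in Tnfr2-/- cells (0.52, adjusted p = 0.0358). Tnf was not called in any of the 4 main comparisons.

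The receptors signal through TRAF, cIAP and death domain adaptors. Of 11 such genes, limma called 3 higher and 0 lower with TNF+TGF-β against Th0 (4 and 1 at an unadjusted p under 0.05), namely Traf6 (1.27), Birc2 (1.26) and Traf4 (0.58). In Tnfr2-/- against WT cells 2 were called higher, with Traf5 at 1.67, and 2 lower, with Traf4 at -0.53. Of 12 T cell activation genes, 4 were called higher and 1 lower with TNF+TGF-β against Th0, with Cd44 (1.69), Il2ra (1.40) and Egr2 (1.39) the highest. With IL-6+TGF-β against Th0 the same list had 2 called higher and 3 lower, where 14.1% and 9.15% of all tested genes were. Il2ra at 1.66 and Tnfrsf18 at -1.56 were the furthest from 0. In Tnfr2-/- against WT cells limma called 6 of these 12 lower and 0 higher, with the same counts at an unadjusted p under 0.05, led by the orphan receptor gene Nr4a3 (-1.78, adjusted p = 0.00104), the GITR gene Tnfrsf18 (-1.73, adjusted p = 2.9e-05) and Il2ra (-1.23, adjusted p = 0.0142). Their median was -0.66, against -2.28 for the ligands. Adam10, a protease that sheds surface proteins, was called higher with either cytokine pair than in Th0 (0.56 and 0.47), and limma called 0 of 3 protease genes in Tnfr2-/- against WT cells, adjusted or not (Adam17 0.05, Adam10 -0.06 and Mmp14 0.31).

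Among one another, the ligands Tnfsf9 and Tnfsf14 had the most alike patterns over the 12 libraries. Likeness was measured as the root mean square difference of log2(FPKM + 1) values centred on each gene's mean, which was 0.33 for this pair, 0.43 for Tnfsf10 and Tnfsf14, and 1.79 for Cd70 and Fasl, the least alike. The search covered 8844 genes with a mean of at least 5 FPKM, without symbols that start with Gm, end in Rik or are missing. Among them the pattern nearest to that of Cd70 was that of Idi2 (0.30), which averaged 0.423 FPKM in Tnfr2-/- cells, 29.4 in WT with TNF+TGF-β, 0.273 with IL-6+TGF-β and 0.863 in Th0. Pla2g4f (0.32) and Gata3 (0.50) followed. Idi2 and Pla2g4f averaged at most 1.51 FPKM outside WT with TNF+TGF-β, so they passed the limit on the mean through that group. Nearest to Tnfsf14 was the receptor gene Fas (0.24), nearest to Tnfsf10 was Slco3a1 (0.24), nearest to Tnfsf9 was Tspan3 (0.20) and nearest to Cd40lg was Myb (0.23). For Tnfsf11, C3 was second (0.40) after Smim10l2a (0.34). Both averaged at most 3.84 FPKM outside WT with TNF+TGF-β, so they too passed that limit through that group. Tnfsf8 was nearest to Arc (0.38), Tnfsf4 to Mlf1 (0.47) and Fasl to Stap1 (0.45). Arc averaged 17.0 FPKM in WT with TNF+TGF-β, against 2.15 in Tnfr2-/- cells, 1.08 with IL-6+TGF-β and 5.78 in Th0. It also passed the limit through WT with TNF+TGF-β. These are descriptions over shared libraries, with no test.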

How the data were processed

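The authors deposited 1 table of gene-level RSEM results for 12 libraries. Per the submitters' processing notes, the tools were RSEM 1.3.1, STAR 2.5.4 and Trimmomatic on mm10; settings and annotation are not given in the sources used here. Per the labels' protocols, libraries were prepared by Nextera XT from SMARTer cDNA, a chemistry that does not mark the strand. The deposited values were read as FPKM, since sums differed between libraries (689045 to 828161) while sums of value times transcript length varied less (coefficient of variation 3.78% against 6.72%); the header does not name the quantity. The Tnfr2-/- columns are numbered 1, 2 and 4 and the labels 1 to 3, so the column numbered 4 was placed in its group only.

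Values were transformed to log2(FPKM + 1), which understates changes of low genes, and 13082 genes (3 or more libraries at 1 FPKM or above) were fitted with limma 3.58.1 (R 4.3.3): trend prior, 1 mean per group over 12 libraries, no covariate. P-values were adjusted over all tested genes (Benjamini-Hochberg) within each of 6 comparisons, and the fit was checked on simulated data. Depth was estimated from steps between low values of 8697 genes with 1 transcript, on their length less 300 bases. At the chosen depth 80.2% to 89.1% of values lay within 0.2 of a whole fragment, where 40% would by chance at a depth fixed beforehand. The depth was chosen on these same values, so this is no independent check. Fragment numbers given for single ligands used the full length and so run high. At that depth 3 fragments on 1 kb correspond to 0.126 to 0.175 FPKM, counting error only. Coordinates came from GENCODE M21 (99.1% of identifiers matched) and promoters from RefSeq. The ligands and lists were chosen with earlier results of these data known. Beside the ligands, the text names up to 3 called genes per list by size, and the genes most alike in pattern. Alternatives changed the pseudocount, filter, scaling, libraries or block.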

Additional observations from a re-analysis of the deposited data

How the results depend on the processing

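Each of 54 ligand results (9 ligands, 6 comparisons) was recomputed under 14 alternatives, 756 values in all. Of these 712 kept direction and call, 27 lost the call, 5 gained it and 12 changed sign, all 12 uncalled and near 0. Of the lost calls 13 and 8 were Cd40lg in TNF+TGF-β against Th0 and in Tnfr2-/- against WT. The sign changed for Tnfsf4 in TNF+TGF-β against Th0 (0.05 rescaled to TPM, 0.04 without immunoglobulin genes, an alternative added after seeing the data, and -0.46 to 0.07 without single libraries, 0.01 without the first Th0 library). It changed for Tnfsf9 in Tnfr2-/- cells against Th0 (-0.08 with median-ratio scaling, and -0.12, without the second Th0 library, to 0.17 without single libraries), in IL-6+TGF-β against Th0 (-0.05, without that library, to 0.24) and in Tnfr2-/- cells against IL-6+TGF-β (-0.16 to 0.05, with 0.05 without the first IL-6+TGF-β library and 0.01 without the Tnfr2-/- library numbered 4), and for Tnfsf10 and Fasl in Tnfr2-/- cells against Th0 (Tnfsf10 -0.40 to 0.12, the last without the library numbered 4, and Fasl -0.17, without that numbered 1, to 0.40). The cause was not tested. Ligands called numbered 6 to 7, 6 to 7, 9 and 7 to 8 over all alternatives in the 4 main comparisons, in the order of the text. All genes called numbered 2812 to 5360, 2131 to 3878, 1135 to 1741 and 3253 to 5269 in the same order.

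The replicate numbers were not treated as pairs, since the labels do not say what they mark and not every same-numbered pair correlated above 0.1. Deviations of same-numbered WT libraries correlated at -0.029 to 0.344 (median 0.114, 5 of 9 pairs over 0.1), and those of differently numbered ones at a median of -0.076 (3 of 18 over 0.1). In 13 of 18 cases a WT library correlated best with its own number in another WT group, which is a hint from the data that the numbers may be shared, not part of the design. With the number as a replicate block, in which the Tnfr2-/- library numbered 4 has a level of its own and drops out, 6, 7, 9 and 7 ligands were called in the main comparisons. Of all 13082 tested genes, 4268, 3207, 1741 and 3253 were called with the block, in the same order. Cd40lg was then called in neither TNF+TGF-β against Th0 nor Tnfr2-/- against WT, Tnfsf11 was called higher in Tnfr2-/- cells than in Th0 (0.75), and Tnfsf10 there stood at 0.07. All genes called in Tnfr2-/- against WT numbered 3253 with the block and 4898 without it, and 3797 with that library left out and no block. Fitting only the groups compared lowered those in Tnfr2-/- cells against IL-6+TGF-β to 3328, against 5038, and ended the calls of Tnfsf8 and Tnfsf14 there.

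Over all genes, the share of calls that were higher moved with the scaling. It was 58.9% in TNF+TGF-β against Th0 and 73.7% without immunoglobulin genes, 72.6% as TPM and 48.0% with median-ratio scaling. In IL-6+TGF-β against Th0 it was 60.6%, and 76.5% on the T cell gene scale; between the cytokine pairs 57.1% and 44.0%; in Tnfr2-/- against WT 53.2% and 68.5%, with 42.7% as TPM and 42.6% without immunoglobulin genes.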
